A study of Mus musculus with 4 samples.

Results

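The genes described here encode 9 lysosomal cathepsins and legumain: Ctsa, Ctsb, Ctsc, Ctsd, Ctsh, Ctsk, Ctsl, Ctss, Ctsz and Lgmn. They were chosen by gene symbol, and each of the 10 symbols matched 1 of the 31053 genes in the count matrices. Their levels were followed in single cells of mouse kidney after ischemia-reperfusion (I/R) injury, in which the blood supply is stopped and then restored. The kidneys came from male C57BL/6 mice, and all mice had I/R, so an uninjured kidney was not analysed here. There were 4 groups with 1 library each: kidneys at day 5, day 14 and day 28 after I/R without the bacterium, and kidneys at day 5 from mice that had received L. casei Zhang (Lac.z), a probiotic bacterium, by mouth at 1e9 CFU per day for 4 weeks before the injury. The labels give neither the number of animals behind a library nor what the other mice were gavaged with. The tissue was homogenized, digested with enzymes, strained and treated to lyse red blood cells.

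Cathepsins are proteases of the lysosome, the acid compartment in which cells break down proteins taken up from outside or delivered from within. They are made as inactive precursors, sorted to lysosomes largely by mannose 6-phosphate receptors, activated as the pH drops and held in check by cystatins. In the kidney, macrophages use them to digest engulfed cells and to trim proteins for antigen presentation, and proximal tubule cells use them to degrade protein filtered from the blood. The family differs in chemistry. Cathepsin D (Ctsd) is an aspartic endopeptidase, and cathepsins B, L, S and K (Ctsb, Ctsl, Ctss, Ctsk) are cysteine endopeptidases. Cathepsins C, H and Z (Ctsc, Ctsh, Ctsz) are cysteine peptidases that act mainly at the ends of proteins, cathepsin A (Ctsa) is a serine carboxypeptidase, and legumain (Lgmn) cuts after asparagine and processes several cathepsins.

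The bases before the RefSeq start sites of Ctsd and Ctss are shown because of their differences in macrophage-like cells. Among the 10 genes, with the rarely counted Ctsk left out, Ctsd differed most between macrophage states. Ctss had the largest difference between the day 5 libraries among the 10 genes. RefSeq gave 10 promoter windows for 8 of the 10 genes; Ctsb and Ctsh had none in the table used. CACGTG, the core of the element bound by TFEB and its relatives, transcription factors of lysosomal genes, was searched on both strands, as was GAAANNGAAA, a pattern of interferon-regulated promoters. TCACGTGA, a longer form, always overlaps a CACGTG. Capitals mark these letters in the 250 bases before the RefSeq start site (GRCm38.p6), printed 5′ to 3′ on the strand of the gene.
Ctsd, chr7:142387828-142388077, minus strand: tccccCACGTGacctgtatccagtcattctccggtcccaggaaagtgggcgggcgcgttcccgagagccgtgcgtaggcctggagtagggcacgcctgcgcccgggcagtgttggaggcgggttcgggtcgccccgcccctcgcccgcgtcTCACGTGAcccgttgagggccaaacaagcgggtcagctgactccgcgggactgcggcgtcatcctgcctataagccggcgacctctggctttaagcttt
Ctss, chr3:95526536-95526785, plus strand: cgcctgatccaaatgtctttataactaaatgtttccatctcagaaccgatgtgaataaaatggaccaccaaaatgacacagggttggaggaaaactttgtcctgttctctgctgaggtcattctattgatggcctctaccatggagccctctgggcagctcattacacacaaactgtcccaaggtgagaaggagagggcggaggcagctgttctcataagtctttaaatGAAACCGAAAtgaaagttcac
The RefSeq start of Ctsd lies inside the longest span that GENCODE annotates for the gene, so 211 of the 250 bases printed are within the annotated gene, whereas those of Ctss lie before it. In these windows CACGTG was found at bases -245 and -98 of Ctsd and GAAANNGAAA at base -21 of Ctss. CACGTG was also in the window of Ctsl, whose 250 upstream bases lie wholly inside the annotated gene, and in 1 of 2 windows each of Ctsa and Lgmn, in both cases the one inside the gene and not the one at its outer start. CACGTG was present in 7.15% of all 32851 windows, TCACGTGA in 0.974% and GAAANNGAAA in 3.44%. Each window is 300 bases long and runs past the start site, so these shares cover more bases than are printed. These matches describe letters and do not show that a factor binds.

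The 4 libraries held 8168 to 15583 cell barcodes and 76678882 to 104454319 unique molecular identifiers (UMIs, each counting 1 captured RNA molecule), and 6583 to 12376 cells per library passed the filters. Any pair of libraries shared between 6 and 25 barcodes among these cells. Of the kept cells, macrophage-like cells were 55.1% in the day 5 library, 23.3% in the Lac.z library, 8.71% on day 14 and 3.52% on day 28, and proximal tubule-like cells 21.6%, 61.1%, 66.8% and 77.0%. All 9 macrophage markers were detected in the first class of every library and all 10 proximal tubule markers in the second. A level below is the number of UMIs of a gene in counts per 1e6 UMIs (CPM), summed over the cells of a class in 1 library. Intervals are exact at 95% and cover only counting error. Since each group had 1 library, no test between groups was possible, so a gene is named higher or lower where the ratio of summed CPM, with 1 UMI added to each sum, reached 1.5-fold, and a gene counts as measured with at least 50 UMIs over both sums. The share of all measured genes past the same rule stands beside the counts. The day 5 matrices carry software version 3.0.2 in their headers and the day 14 and day 28 matrices 3.1.0, so software and time cannot be told apart.

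Macrophage-like cells were the class with the highest median level for 8 of the 10 genes, and fibroblast or mural-like cells for the other two, Ctsk and Ctsl. Cathepsin S, which completes the trimming of the class II invariant chain, ranged from 2310 to 3724 CPM over the 4 libraries in macrophage-like cells. Its levels overlapped those of monocyte-like cells, at 1510 and 2912 CPM, and conventional dendritic-like cells reached at most 1771 CPM. For Ctsa, Ctsb, Ctsh and Lgmn the lowest macrophage-like library lay above the highest library of the next class. Legumain had proximal tubule-like cells in second place, at 431 to 681 CPM against 757 to 1430 CPM in macrophage-like cells.

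Cathepsin D levels differed between libraries. Its macrophage-like level ran from 364 to 2517 CPM, and this range overlapped that of neutrophil-like cells, at 956 to 1318 CPM. Principal-like cells of the collecting duct followed with 1163 CPM at day 14 and 732 CPM at day 28, and injured tubule-like cells with 601 to 871 CPM. In the day 14 and day 28 libraries the macrophage-like Ctsd level was below that of both these classes. The medians cover only libraries with at least 50 cells of a class, so the libraries differ between classes. Cathepsin L was highest in fibroblast or mural-like cells, at 2093 CPM at day 5 and 1773 CPM at day 14, a range that overlapped the 1184 to 1851 CPM of injured tubule-like cells. Cathepsin K, a collagen-degrading enzyme best known from osteoclasts, was at 178 CPM (95% interval 153 to 206) and 196.5 CPM (165 to 233) in fibroblast or mural-like cells of the same libraries, from 55 and 57 cells. No other class had a median above 1.67 CPM for Ctsk, and 3 cells held 28.2% and 22.6% of its fibroblast or mural-like UMIs. Ctsk and Ctss are neighbours on chromosome 3, 17424 bases apart, and they peaked in different classes. The 8 Ctsk UMIs of neutrophil-like cells gave up to 28.6 CPM in 1 library.

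**Figure D1:**
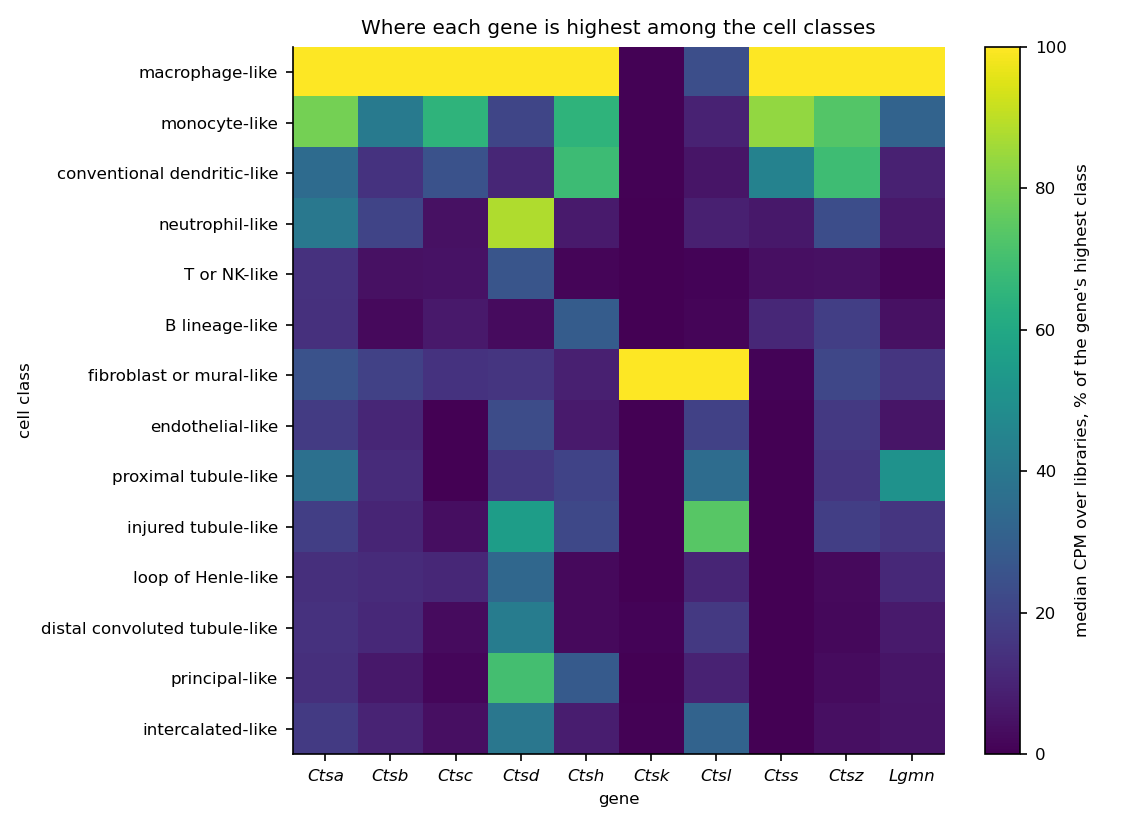
Median level of each gene over the libraries in every cell class with at least 50 cells, as percent of the class in which that gene's median was highest (100%, yellow). The rows are cell classes and the columns genes; 8 of the 10 columns peak in macrophage-like cells, and Ctsk and Ctsl peak in fibroblast or mural-like cells.

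In macrophage-like cells, transcripts of Ctsd, Ctsl and Ctsb were lower at day 14 and day 28 than at day 5, and those of most other members stayed within 1.5-fold. At day 5, Ctsd was at 2517 CPM and it was at 537 CPM at day 14 and 364 CPM at day 28. Ctsl stood at 725, 301 and 225 CPM at these times, and Ctsb at 3086, 1575 and 1616 CPM. Both later libraries lay below both day 5 libraries for all 3 genes. Against day 5, Ctsd was 4.69-fold lower at day 14 (95% interval 4.54 to 4.84) and 6.92-fold lower at day 28 (6.49 to 7.39). The factor for Ctsl was 2.41 (2.31 to 2.52) on day 14 and 3.22 (2.96 to 3.50) on day 28, and that for Ctsb 1.96 (1.92 to 2.00) and 1.91 (1.85 to 1.97). Lgmn was 1.47-fold lower at day 14, just inside the rule, and 1.79-fold lower at day 28 (1.72 to 1.88).

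Ctsk was rare in this class, with 108 UMIs at day 5, 43 in the Lac.z library, 4 on day 14 and 0 on day 28. Against day 5 it was 4.53-fold lower at day 14 (1.72 to 16.9) and at least 2.13-fold lower at day 28, taking 3 counts for the empty library. In all, 4 of the 10 members were lower at day 14, where 13.1% of all measured genes were, and 5 of 10 at day 28, where 13.3% were. No member was higher at either time. Between day 14 and day 28 none of the 9 measured members passed 1.5-fold in either direction, against 12.1% of all genes. The median log2 ratio of the members was -0.45 at day 14 and -0.60 at day 28, beside -0.08 and 0.00 over all measured genes.

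The remaining members showed other courses. Ctss was at 2506, 2310 and 2782 CPM at day 5, day 14 and day 28. Ctsh, an aminopeptidase, was at 803, 816 and 851 CPM. Ctsa was at 379, 417 and 318 CPM, Ctsc, the activator of granule serine proteases, at 1385, 1140 and 1075 CPM, and Ctsz at 1177, 924 and 960.0 CPM. None of these 5 genes reached 1.5-fold. Summed over all 10 genes, the class had 13938 CPM at day 5, 15201 CPM with Lac.z, 8942 CPM at day 14 and 8948 CPM at day 28.

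**Figure D2:**
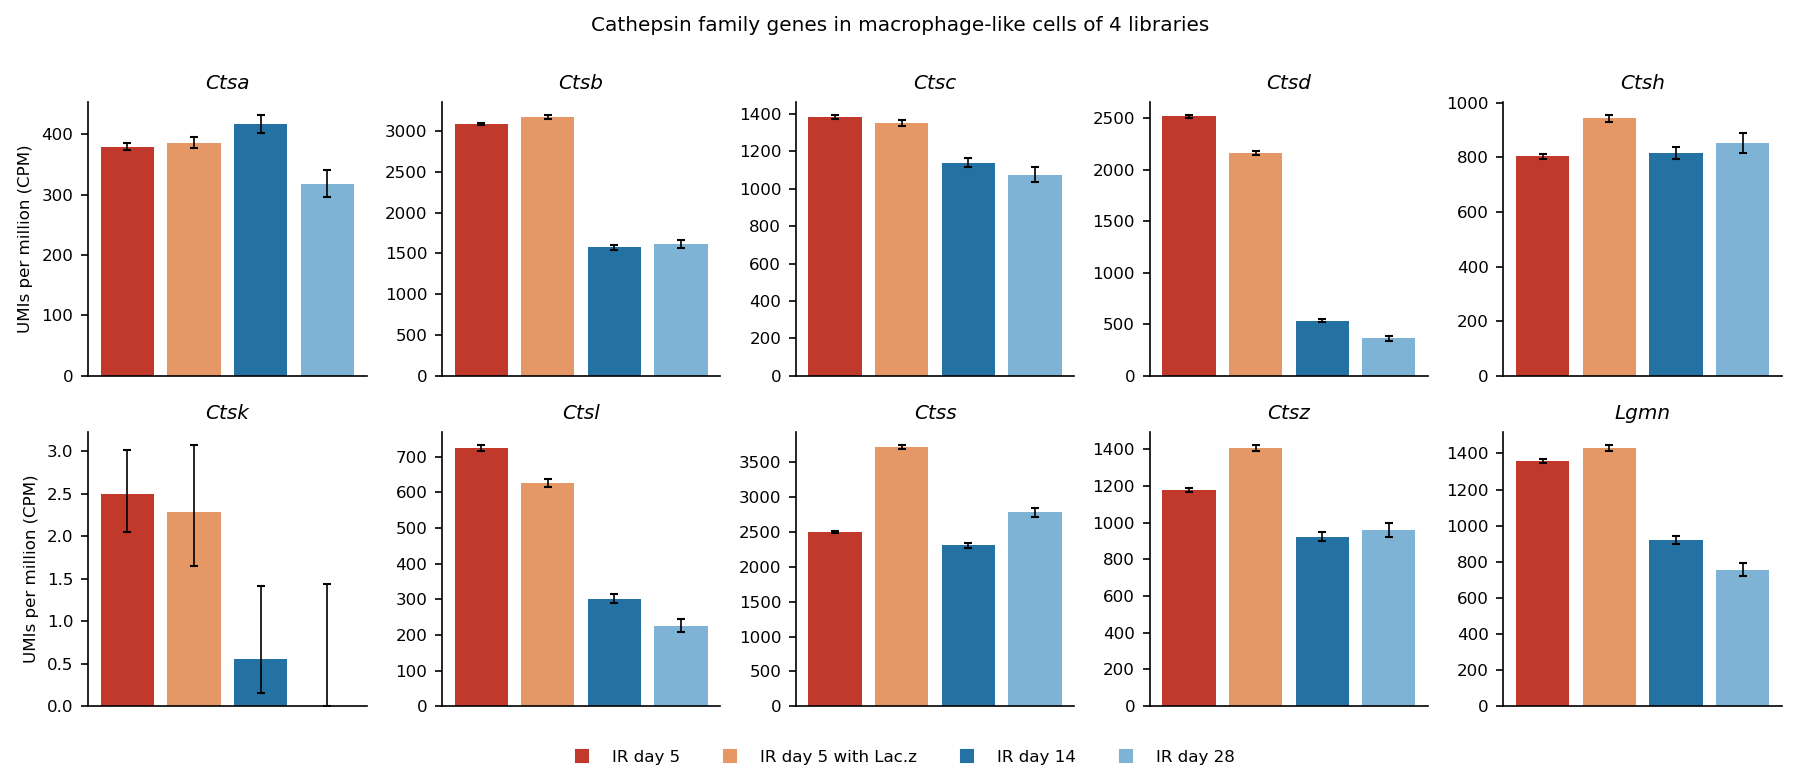
CPM of each gene in macrophage-like cells of the 4 libraries; bars are 1 library each and error bars exact 95% Poisson intervals, which cover counting error only. The bars of Ctsb, Ctsd and Ctsl are lower at day 14 and day 28 than in both day 5 libraries, while Ctss is tallest at day 5 with Lac.z (3724 CPM).

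The cells that made up the class changed over the same times. Cluster 7, whose 1561 cells included 1351 from the day 5 library, held 37.1% of macrophage-like cells at day 5, 13.1% with Lac.z, 1.19% on day 14 and 0% on day 28 (0 of 436 cells, which allows up to 0.688%). In this cluster Ctsd was at 4123 CPM at day 5 and 5193 CPM with Lac.z. Cluster 5 held cells of all 4 libraries, 31.4%, 14.1%, 84.1% and 69.0% of the class. Within it Ctsb was at 1483, 1564, 1534 and 1455 CPM and Ctsl at 291, 306, 297 and 234 CPM, in the order day 5, day 5 with Lac.z, day 14 and day 28. Restricted to cluster 5, an alternative added after the data were seen, none of the 9 measured members passed 1.5-fold at day 14 against day 5 (16.5% of all genes did). At day 28 only Ctsd was lower, 333.5 against 604 CPM or 1.81-fold (1.67 to 1.97), where 10.3% of all genes were. Cluster 0 also held cells of all 4 libraries. Summed over the 10 genes and in the order above, it had 11097, 12714, 9622 and 10863 CPM. The sums in cluster 5 were 9669, 10753, 8832 and 8512 CPM.

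Cells gated as resident-like, by at least 2 UMIs of the fractalkine receptor gene Cx3cr1 and fewer of the gene pairs that mark the other states, showed the Ctsd difference too. This gate admits cells with 1 UMI of Arg1 and Gpnmb, whose day 5 Ctsd level, given below, was above that of cells with none. It also does not hold the clusters fixed, and the part of makeup within the gate was not tested. The Ctsd level of resident-like cells was 1217 CPM at day 5, 1232 with Lac.z, 484 on day 14 and 387 on day 28. Against day 5 these later levels were lower by factors of 2.52 (2.41 to 2.63) and 3.15 (2.89 to 3.44). At day 14 Ctsd was the 1 member of 9 that was lower, where 8.98% of all genes were. At day 28 Ctsl, 1.70-fold lower at 230 CPM, and Lgmn, 1.69-fold lower at 743 CPM, made it 3 of 9, where 11.0% of all genes were. Ctsb stayed within the rule, at 2174, 1581 and 1662 CPM.

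RNA of other cells moved with time in the macrophage-like sums. The 10 proximal tubule markers, all detected in every library, summed to 153, 340, 907 and 2459 CPM at day 5, day 5 with Lac.z, day 14 and day 28, against 18702 to 42505 CPM in proximal tubule-like cells. Erythroid markers summed to 543, 33.9, 9.92 and 16.8 CPM, with Alas2 at 0 in the last 3. The median number of UMIs per macrophage-like cell was 10993, 11056, 9050 and 5372. Their part in the time course was not tested. Counts of members lower at day 14 and day 28 were the same among cells with at least 2000 UMIs. That floor does not bring the libraries to equal depth or remove RNA of other cells.

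The other lysosomal gene lists of the macrophage-like class had median ratios nearer to 0 than the members had. At day 28 against day 5, where 13.3% of all measured genes were lower and 16.9% higher, 4 of 33 hydrolases were lower, a share near that of all genes, and 1, Arsb, was higher. Grn (progranulin) was 1.82-fold and Galc 1.98-fold lower. Of 15 lysosomal membrane genes 6 were lower, with Lamp1 2.26-fold and the cholesterol transporter Npc1 2.21-fold. Proton pump genes were lower in 4 of 16, with Atp6v0d2 at 2.35 against 27.9 CPM. Of the transcription factors, Tfec was lower, at 4.69 against 27.5 CPM. Cystatin C (Cst3), a secreted inhibitor, was 1.57-fold higher, whereas cystatin B (Cstb) was 1.94-fold lower. All 6 class II genes were higher, H2-Ab1 4.74-fold and the invariant chain Cd74 3.85-fold. The median log2 ratios were -0.09 for hydrolases, -0.32 for membrane genes, -0.46 for the pump and 2.04 for class II genes, beside 0.00 for all genes.

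Repair-state macrophage-like cells had higher levels of Ctsd, Ctsl, Ctsb and Ctsk than resident-like cells of the same library. Repair-state cells, gated by at least 2 UMIs of Arg1 (arginase) and Gpnmb (a lysosomal glycoprotein of phagocytes) together, numbered 790 at day 5, 263 with Lac.z, 22 on day 14 and 3 on day 28. In the day 5 library Ctsd was at 4635 CPM in repair cells and 1217 CPM in resident-like cells, 3.81-fold higher (3.75 to 3.87). Ctsl was at 1273 against 391 CPM, 3.26-fold higher (3.17 to 3.35), and Ctsb at 4639 against 2174 CPM, 2.13-fold higher (2.11 to 2.16). Ctsk had 87 UMIs in repair cells and 5 in resident-like cells, 6.15 against 0.291 CPM, a ratio of 21.1 (8.71 to 66.6). In all 4 of 10 members were higher, where 7.04% of all measured genes were, and none was lower.

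The other members stayed inside the rule. Ctsa (1.38-fold), Ctsz (1.37-fold), Lgmn (1.27-fold) and Ctss (1.18-fold) were inside the rule on the higher side. Ctsc and Ctsh were on the lower side, 1.34-fold and 1.28-fold. Their repair-cell levels were 1160 and 707 CPM, against 1557 and 908 CPM in resident-like cells.

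The Lac.z library, whose cells the first comparison did not use, gave these ratios for the same genes. Ctsd was at 5014 CPM in repair cells and 1232 CPM in resident-like cells (4.07-fold), Ctsl at 1311 and 400 CPM (3.28-fold) and Ctsb at 5382 and 2195 CPM (2.45-fold). Here 3 of 9 measured members were higher, where 9.26% of all genes were. Ctsk had 36 UMIs in repair cells and 0 in resident-like cells, at least 6.15-fold higher with 3 counts for the empty sum, and with fewer than 50 UMIs it was outside the count of measured members.

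Cells at the edge of the gate had intermediate Ctsd levels. In the day 5 library it was 1065 CPM in macrophage-like cells with 0 UMIs of Arg1 and Gpnmb, 2378 CPM with 1 UMI, 3470 CPM with exactly 2 and 4654 CPM with 2 or more, before cycling cells were set aside. Repair cells were deeper, with a median of 17685 UMIs per cell against 10018 in resident-like cells, and with Lac.z 17877 against 8268. After each cell was thinned to 2000 UMIs, 1.41% of day 5 repair cells and 0.0631% of resident-like cells held a Ctsk UMI, against 24.1% of fibroblast or mural-like cells and 0 of 417 T or NK-like cells (exact 95% upper bound 0.881%). The resident-like share is below that bound, so it was not read as expression. Erythroid markers summed to 6.86 CPM in repair cells and 1312 CPM in resident-like cells at day 5. With Lac.z the sums were 24.2 and 38.0 CPM. The part of erythroid RNA was not tested.

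**Figure D3:**
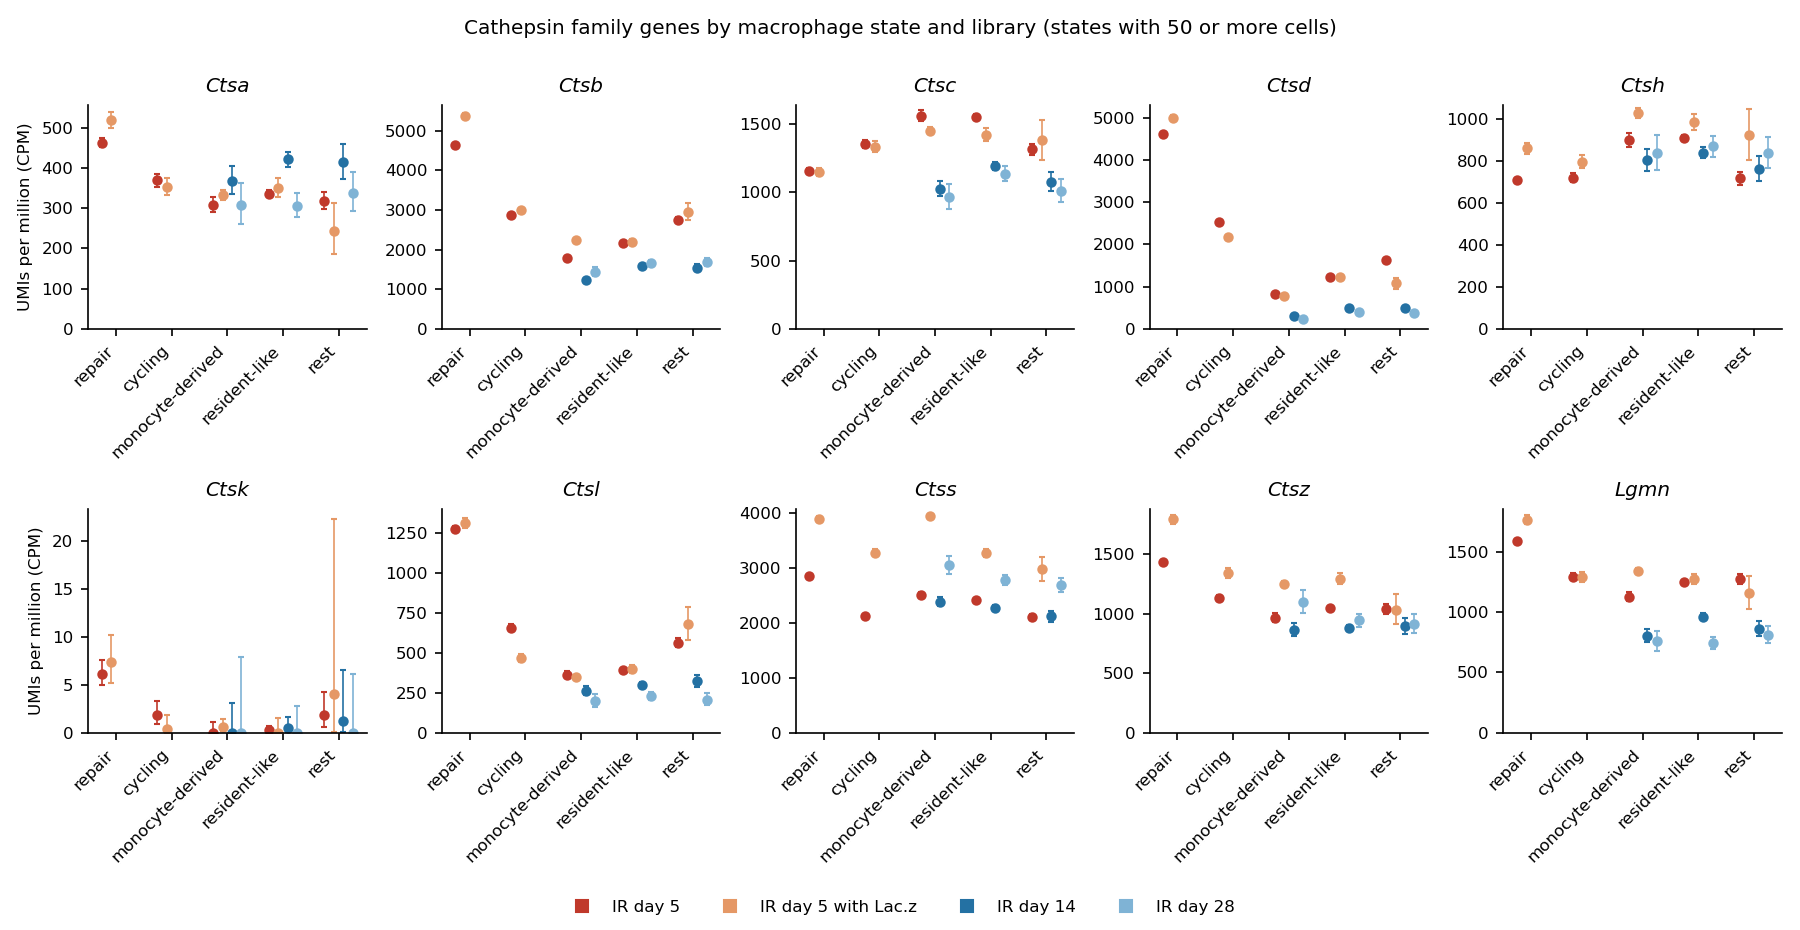
CPM of each gene by macrophage state (horizontal axis) and library (colour), for states with at least 50 cells; points are 1 library each and error bars exact 95% Poisson intervals. Repair cells stand highest for Ctsb, Ctsd, Ctsk and Ctsl in both day 5 libraries, and the resident-like Ctsd points run from 1217 CPM at day 5 to 387 CPM at day 28.

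Some lysosomal genes beyond the cathepsins were also higher in repair cells at day 5, where 7.04% of all measured genes were higher and 11.0% lower. Of 33 hydrolases 6 were higher and 2 lower: the phosphatase Acp5 was 5.72-fold higher, prosaposin (Psap) 1.92-fold and acid lipase (Lipa) 1.84-fold. Membrane genes were higher in 4 of 15, Cd63 2.00-fold and Lamp1 1.74-fold. Of 16 pump genes 6 were higher, with Atp6v0d2 at 72.8 against 1.92 CPM. The mannose 6-phosphate receptor gene Igf2r was at 26.6 against 1.98 CPM, and Tfec was 2.66-fold higher. The inhibitors split, Cstb 2.88-fold higher and Cst3 1.98-fold lower. The 6 class II genes were all lower, H2-Eb1 11.1-fold and Cd74 7.02-fold. The lists' median log2 ratios were 0.29, 0.31 and 0.50 for hydrolases, membrane and pump and -2.92 for class II genes, beside -0.02 for all genes.

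The remaining states had lower Ctsd than repair cells. Cycling cells, with at least 2 UMIs of Mki67 and Top2a, had Ctsd at 2546 CPM at day 5 and 2170 CPM with Lac.z. Monocyte-derived cells, gated by Ly6c2 and Ms4a4c, had the lowest Ctsd of the named states in every library, at 822, 785, 302 and 225 CPM from day 5 through day 5 with Lac.z to day 14 and day 28. Their Ctss level was close to that of the other states, at 2512, 3943, 2388 and 3056 CPM.

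Between the day 5 libraries with and without Lac.z, none of the 10 members passed 1.5-fold in macrophage-like cells in either direction, where 11.7% of all measured genes did. Ctss came closest, at 3724 CPM with Lac.z and 2506 CPM without, a ratio of 1.49. It passed the rule, as the 1 member of 10, when each cell was given equal weight or each library was clustered alone. Ctsz was 1.195-fold and Ctsh 1.17-fold higher with Lac.z, and Ctsd 1.17-fold and Ctsl 1.16-fold lower.

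The makeup of the class differed between these libraries: monocyte-derived cells held 7.52% of the class without the bacterium and 50.8% with it, resident-like cells 44.5% and 17.5%, and repair cells 21.7% and 17.2%. Cluster 22 held 61.6% of the class with Lac.z, and 944 of its 1069 cells came from that library, so it may mark the library. Within states, Ctss was higher with Lac.z by 1.57-fold in monocyte-derived cells (1.53 to 1.61), 1.36-fold in resident-like cells (1.33 to 1.39) and 1.36-fold in repair cells (1.34 to 1.39). It was the 1 of 9 members past the rule in monocyte-derived cells, where 8.31% of all genes were higher. None of 9 passed in resident-like cells, where 12.5% of all genes did in either direction, and none of 10 in repair cells, where 8.23% did. Ctsd was 1.08-fold higher with Lac.z in repair cells, 1.01-fold higher in resident-like and 1.05-fold lower in monocyte-derived cells. No gene of the hydrolase, membrane, pump or class II lists passed 1.5-fold between the day 5 libraries in the class.

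Proximal tubule-like cells expressed a narrower set, and most of it varied little between libraries. Ctsl, which together with Ctsb breaks down reabsorbed protein, was at 596, 714, 682 and 679.7 CPM at day 5, day 5 with Lac.z, day 14 and day 28. Ctsb was at 296, 334, 291 and 244 CPM, Ctsd at 216, 203, 241 and 219 CPM and Ctsa at 138, 148, 144 and 135 CPM. Ctsz was at 169, 163, 185 and 160.2 CPM. None of these 5 genes reached 1.5-fold against day 5.

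Legumain was lower at the later times. Its level was 681 CPM at day 5, 670.0 CPM with Lac.z, 495 CPM at day 14 and 431 CPM at day 28, so both later libraries lay below both day 5 libraries. At day 28 it was 1.58-fold lower (1.54 to 1.62), and 1.38-fold at day 14. With injured tubule-like cells counted in, the log2 ratio at day 28 was -0.54 instead of -0.66, inside the rule. Ctsh was higher at the later times, at 135, 148, 212 and 187 CPM, 1.56-fold at day 14 (1.48 to 1.65). That call was lost, at a log2 ratio of 0.57 instead of 0.64, with CPM taken outside mitochondrial and haemoglobin genes. Mitochondrial genes held 21.0% of the UMIs of these cells at day 5 and 16.9% at day 14, and haemoglobin genes 0.227% and 0.00192%. The segments also shifted. S3-like cells, in which Ctsh was highest (below), were 8 of 1430, 61 of 4019, 474 of 5817 and 297 of 9523 cells in the same order. Their part in the Ctsh difference was not tested.

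Ctsc and Ctss also passed the rule, from very low levels. Ctsc was at 9.01, 3.32, 2.12 and 1.12 CPM and Ctss at 9.01, 7.57, 2.80 and 1.36 CPM. The 3 C1q genes, which macrophages express and tubule cells should lack, were at 71.6, 27.0, 13.6 and 6.22 CPM in the same cells and at 14436 to 17490 CPM in macrophage-like cells. Scaling the macrophage-like level by that C1q ratio gave 6.87 CPM of Ctsc and 12.4 CPM of Ctss at day 5, so the measured levels were 1.31 and 0.725 times the scaled ones. Over the other libraries the factor was 1.47 to 2.94 for Ctsc and 1.22 to 1.48 for Ctss. How much of these UMIs came from tubule cells was not tested. For Ctsa, Ctsb, Ctsd, Ctsh, Ctsl, Ctsz and Lgmn the measured level was at least 17.3 times the scaled one in every library.

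Among the 9 measured members, 1 was lower with Lac.z in proximal tubule-like cells (Ctsc, where 2.12% of all genes were lower) and 3 passed at day 14 in either direction (Ctsh, Ctsc and Ctss, where 15.2% did). At day 28, 3 were lower (Lgmn, Ctsc and Ctss, where 7.69% were). Without Ctsc and Ctss the counts are 0, 1 and 1. Ctsk had at most 8 UMIs in any library of this class. The hydrolases had a median log2 ratio of 0.07 and the pump genes 0.03 at day 28, beside 0.01 for all genes, and none of 15 pump genes passed.

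**Figure D4:**
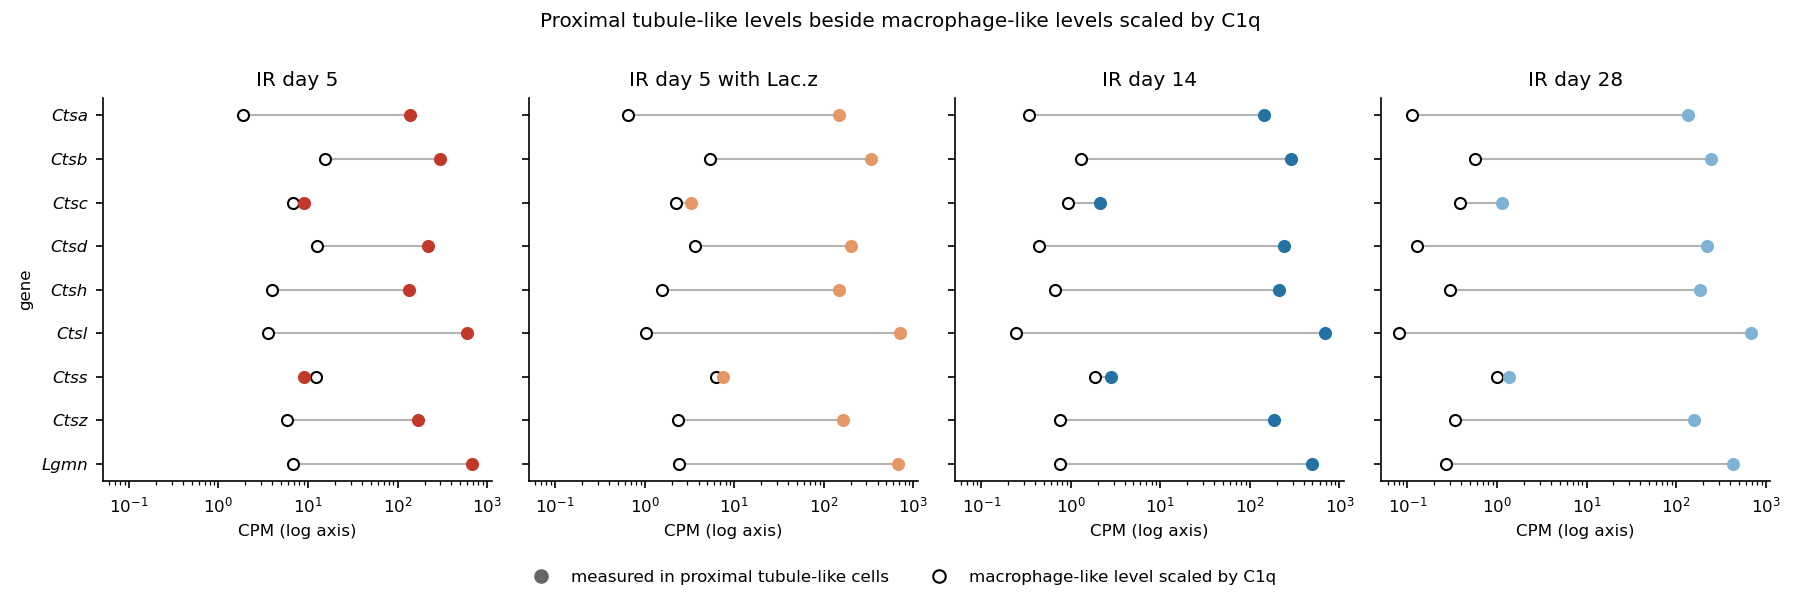
Level of each gene in proximal tubule-like cells (filled points) beside the macrophage-like level scaled by the C1q genes (open points), 1 panel per library, on a logarithmic CPM axis. The points lie at most 2.94-fold apart for Ctsc and Ctss and at least 17.3-fold apart for the other genes shown.

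Along the proximal tubule, Ctsh was highest in S3-like cells and the other well-detected members in S1-like cells. The tubule is divided into S1, S2 and S3 segments, of which S1 takes up most filtered protein; sub-clusters were named by segment markers that include no member. In the day 28 library, Lgmn was at 642, 301 and 169 CPM in S1-like, S2-like and S3-like cells, and Ctsl at 851, 593 and 333.5 CPM. Ctsb was at 322, 199 and 122 CPM, Ctsa at 181, 110 and 66.6 CPM, Ctsd at 260.2, 201 and 129 CPM and Ctsz at 183, 151 and 88.6 CPM. Each of these 6 genes had its highest level in S1-like cells. Ctsh had the opposite order, at 157, 200 and 403.5 CPM.

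In S3-like against S1-like cells at day 28, Lgmn was 3.80-fold lower (3.42 to 4.24), Ctsa 2.72-fold, Ctsb 2.64-fold, Ctsl 2.55-fold, Ctsz 2.07-fold and Ctsd 2.01-fold lower, and Ctsh was 2.57-fold higher (2.38 to 2.78). All 7 measured members passed, where 48.3% of all measured genes did. The median log2 ratio was -1.35 for the members and -0.31 for all genes. At day 14, where 46.8% of all genes passed, 7 of 9 members did: Ctsh was at 164 CPM in S1-like and 460.4 CPM in S3-like cells, 2.81-fold higher, and Lgmn at 785 and 209.5 CPM, 3.75-fold lower. Ctsc was among the 7 with 5 UMIs in S3-like cells, and Ctsz was inside the rule at 1.30-fold. In the Lac.z library, with 61 S3-like cells, Ctsh was at 143 and 349.7 CPM and Lgmn at 941 and 202 CPM. The day 5 library had 8 S3-like cells and gave no value. When each cell was assigned by its own marker sums, the log2 ratios at day 28 were 0.56 for Ctsh, -0.43 for Ctsd and -0.37 for Ctsz, and these 3 calls were lost.

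The rest of the lysosome did not show one direction along the segments. At day 28, where 12.1% of all measured genes were higher in S3-like cells and 36.2% lower, 8 of 31 hydrolases were higher and 13 lower: prosaposin was 2.00-fold higher, and Lipa was at 6.37 against 276 CPM. Pump genes were lower in 9 of 15, Atp6v1b2 3.45-fold. Lrp2 (megalin), the receptor that takes up filtered protein and itself a marker of the class, was 1.70-fold lower.

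**Figure D5:**
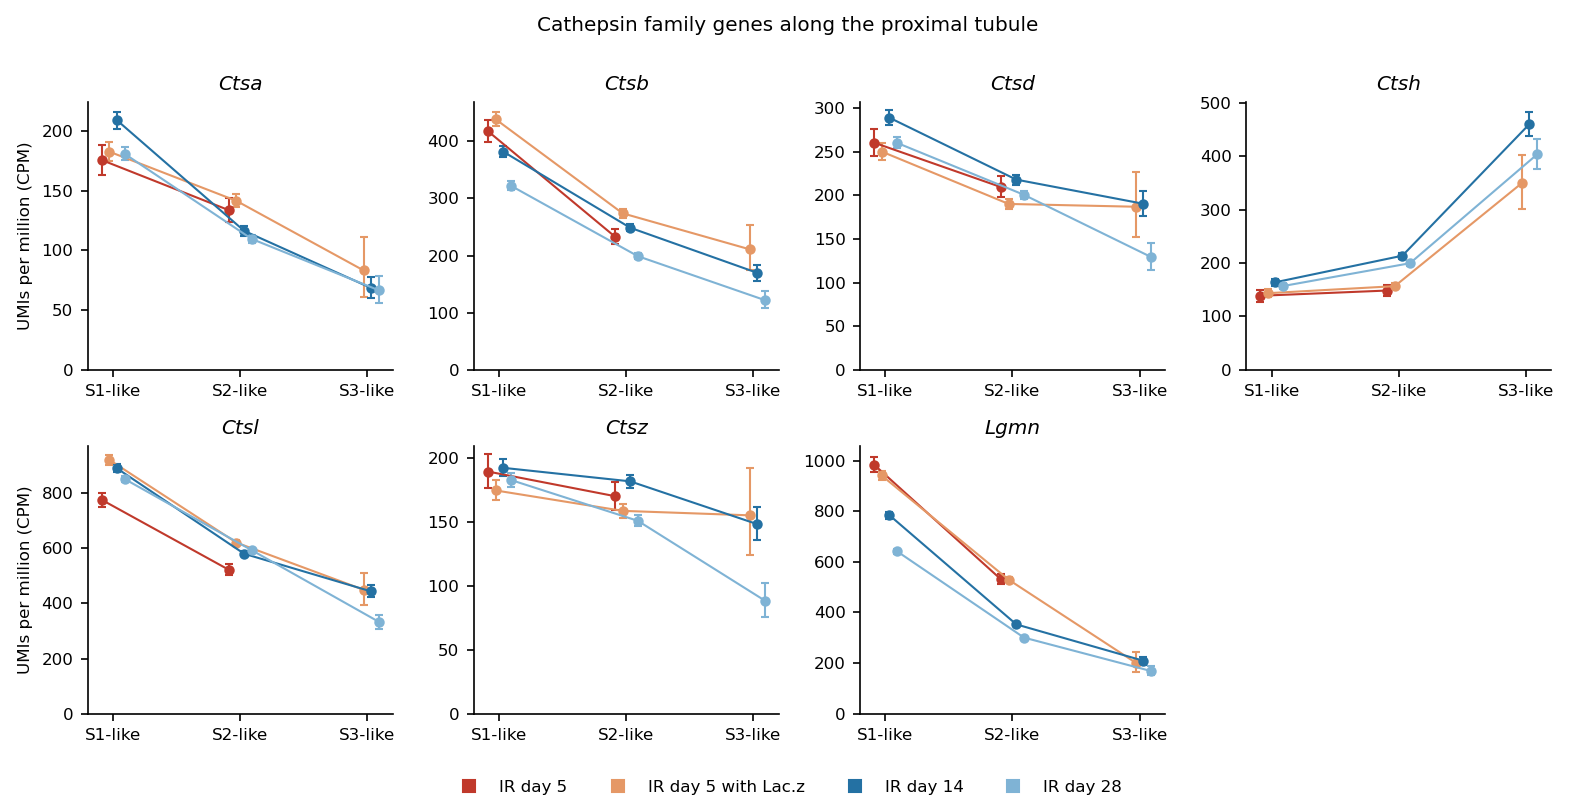
CPM of the 7 genes above the C1q-scaled level in S1-like, S2-like and S3-like cells, 1 line per library; points are sums over the cells of 1 library and error bars exact 95% Poisson intervals. S3-like points lie below S1-like points except for Ctsh, which at day 28 goes from 157 to 403.5 CPM.

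Within S1-like cells Lgmn was again lower at day 28, and Ctsh stayed inside the rule. Lgmn was at 984, 941, 785 and 642 CPM at day 5, day 5 with Lac.z, day 14 and day 28, and at day 28 it was 1.53-fold lower than at day 5 (1.48 to 1.59). Ctsh was at 139, 143, 164 and 157 CPM, and its ratio of 1.18 at day 14 was inside the rule. At day 14, 2 of 9 members passed (Ctsc and Ctss, where 15.0% of all genes did), and at day 28, 3 of 9 (Lgmn, Ctsc and Ctss, where 15.5% did). In S2-like cells, in the same order of libraries, Lgmn was at 530.5, 529.4, 353.1 and 301.0 CPM. Ctsh was at 148.4, 156.6, 213.7 and 199.6 CPM there.

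Tubule cells with transcripts of Havcr1, which encodes the injury marker KIM-1, differed in several members at day 5, as did many other genes. Proximal and injured tubule-like cells with at least 2 Havcr1 UMIs, 75 in the day 5 library, had Ctsd at 504 CPM against 268 CPM in cells with none (1.88-fold higher, 1.74 to 2.04). Ctsz was at 293 against 157 CPM (1.87-fold), Ctsl at 1039 against 612 CPM (1.70-fold), and Lgmn at 350.4 against 658 CPM (1.88-fold lower). With Ctsc and Ctss, 6 of 9 members passed, where 50.7% of all genes did.

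In the Lac.z and day 14 libraries the share of members that passed was no higher than that of all genes, and at day 14 it was near it. The day 28 library had 15 cells with at least 2 Havcr1 UMIs and gave no value. With Lac.z, Ctsz was 1.61-fold and Ctsc 2.66-fold higher, 2 of 9, where 36.2% of all genes passed, and Ctsd was at 314 against 212 CPM, inside the rule. At day 14, 3 of 9 passed (Ctsz 1.55-fold higher, and Ctsc and Ctss from 11 and 2 UMIs), where 35.9% of all genes did. Lgmn did not follow day 5 in these libraries, at 720 against 649 CPM with Lac.z and 533 against 486 CPM at day 14. Cells with at least 2 Havcr1 UMIs were deeper, with medians of 17427, 12710 and 13558 UMIs against 6801, 7660 and 5714 at day 5, with Lac.z and at day 14. Their summed macrophage markers were 737, 418 and 865 CPM against 524, 404 and 440 CPM. The gate pools proximal and injured tubule-like cells, and the summed proximal tubule markers were 5232, 10279 and 17482 CPM against 20488, 18811 and 38049 CPM. The part of depth, macrophage RNA and the mix of classes was not tested. In injured tubule-like cells, a class of 52 to 77 cells per library, Ctsl was at 1184, 1231, 1851 and 1632 CPM and Ctsd at 871, 836, 668 and 601 CPM from day 5 through day 5 with Lac.z to day 14 and day 28.

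In the collecting duct the cell types differed in Ctsd and Ctsh. Intercalated cells were split by their type A and type B markers, where type A secretes acid and type B bicarbonate. At day 14 Ctsd was at 888 CPM in type B and 374 CPM in type A, and at day 28 at 729 and 259 CPM, 2.37-fold (2.07 to 2.73) and 2.81-fold (2.50 to 3.18) higher in type B. Ctsl was 2.34-fold and 2.24-fold higher, at 915 against 391.6 CPM and 868 against 388 CPM. Ctsh went the other way, at 16.4 against 93.9 CPM at day 14 and 9.64 against 126 CPM at day 28, 5.71-fold (3.09 to 11.5) and 13.04-fold (7.13 to 26.6) lower in type B. Of 8 measured members 6 passed at day 14, where 22.2% of all genes did, and 5 at day 28, where 25.0% did. The calls rest on few cells, 50 and 130 of type B and 65 and 159 of type A, and on 12 and 11 UMIs of Ctsh in type B. Principal-like cells had Ctsd at 1163 and 732 CPM and Ctsh at 223 and 251 CPM at these times.

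Across the 42 sums of class by library with at least 50 cells, the genes whose log2 level followed each member most closely differed by member. Pearson's r was computed for 11043 genes and is a description, since these sums share libraries and depth. Ctss was closest to Cd86 (0.971) and Cybb (0.967), Ctsk to the collagen gene Col3a1 (0.944), Ctsa to Zeb2os (0.945) and Ctsz to Zeb2 (0.899). Ctsb was closest to the macrophage gene Adgre1 (0.887), Lgmn to Adap2 (0.870), Ctsc to Cx3cr1 (0.861), Ctsh to the class II gene H2-DMb1 (0.860) and Ctsl to Pdgfa (0.833). For Ctsd the closest gene, Hgsnat, reached only 0.666. The share of a library's Ctsd UMIs that lay in macrophage-like cells was 89.8% at day 5, 77.4% with Lac.z, 17.1% on day 14 and 4.63% on day 28, while proximal tubule-like cells held 50.0% and 65.9% at the later times.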

How the data were processed

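Single-cell RNA was counted in 4 kidney libraries, 1 per group. The deposited count matrices hold whole-number UMI counts per gene and barcode, per the file headers, with software version 3.0.2 (both day 5 libraries) or 3.1.0; the build is mm10 per the submitters' processing notes, and which aligner ran was not stated in the labels. The members and gene lists were chosen with earlier results of these data known. From the counts, barcodes under 200 genes or over 50% mitochondrial UMIs were left out. Scrublet's own calls were few (161, 1, 63 and 2), so its top scores were removed at 0.8% per 1000 barcodes. Cells were log-normalised, clustered together on 2000 variable genes without the members, 30 principal components, 20 neighbours and Leiden resolution 1 (scanpy 1.11.5, Python 3.11.15, scipy 1.17.1), and no batch correction was made. Clusters were named "X-like" from marker lists by scaled marker scores (at least 0.25, 1.5 times the next class, 3 detected markers), with thresholds set after the clusters were seen; rebuilt names can differ from the study's. Cluster 10, with a median of 1200 UMIs per cell and 461 of 488 cells from day 5, stayed macrophage-like by its C1q genes. Macrophage states were gated in the order cycling, repair, monocyte-derived, resident-like. UMIs were summed per class and library, and ratios have exact conditional binomial 95% intervals. The code for the ratio and its interval was checked on simulated Poisson counts. Those counts held no variation between cells or libraries, so the check covers counting error only. The text could name all 10 members, list genes past 1.5-fold and, for each member, the genes with the highest r of log2(CPM + 10), and the promoter windows are RefSeq's for GRCm38.p6.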

Additional observations from a re-analysis of the deposited data

How the results depend on the processing

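With 1 library per group, leaving out a replicate left no comparison, and few UMIs stand behind Ctsk outside fibroblast or mural-like cells and few cells behind the S3-like, injured tubule-like and intercalated sums. No paired analysis was possible because each group has a single library. Of 96 counts of members past 1.5-fold under an alternative setting, 88 stayed within 1.5 times the reported count and 8 did not. For macrophage-like cells with Lac.z the count was 1 instead of 0, Ctss, with the mean over cells and with each library clustered on its own. At day 14 the macrophage-like count was 0 instead of 4 within cluster 5, and at day 28 it was 3 instead of 5 under a 2-fold rule and 1 within cluster 5; cluster 5 was chosen after seeing the data. For proximal tubule-like cells with Lac.z the count was 2 instead of 1 with each library clustered on its own and with injured tubule-like cells counted in. At day 28 it was 1 instead of 3 with a filter of 200 UMIs, which leaves fewer genes. Apart from the last, where low genes drop out, the cause was not tested. Of 326 members' log2 ratios under an alternative, 254 were classed as the same, 70 as moved and 2 as reversed. The 2 reversed ratios were both within cluster 5 at day 14: Ctsb at 0.05 and Ctsl at 0.03. For the 27 called ratios, the rule was no longer passed in 16 pairs of ratio and alternative, with some ratios in more than 1 pair. With the 2-fold rule left aside, 11 pairs remained. Leaving out cluster 10 or cells under 2000 UMIs, both added after seeing the data, changed no count of members in macrophage-like cells or between their states.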

Other observations

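Other white blood cells also had UMIs of the members. In conventional dendritic-like cells, which take up and present antigen, Ctsd was at 671 CPM at day 5, 176 CPM at day 5 with Lac.z, 117 CPM at day 14 and 110 CPM at day 28, so the day 5 library stood above the other 3. Ctss, the protease of class II presentation, was at 1771, 1288, 1061 and 983.5 CPM there, and Ctsb at 700.2, 334, 284 and 360.1 CPM. The summed macrophage markers in these cells were 4549, 2248, 1969 and 1302 CPM in the same order, and their part was not tested. Neutrophil-like cells, which digest microbes, had Ctsd at 1318, 956 and 1186 CPM at day 5, day 5 with Lac.z and day 14, while their Ctss level was 172, 229 and 164 CPM. T or NK-like cells had Ctsd at 358, 351, 416 and 348 CPM in the 4 libraries. These values come from 1 library each, and no group comparison was tested.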
